A study of Mus musculus with 10 samples.

Results

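To find out whether detoxification genes differ in muscle fibres that lack mitochondrial thioredoxin reductase, the transcripts of glutathione transferases and of other genes of the NRF2 pathway were examined in mouse GTN (gastrocnemius) muscle. The genes were taken from a list of 41 symbols, 25 transferases and 16 other NRF2 genes, and 39 of them (24 and 15) are named by a probe set of the array, each by exactly 1. *Gsta1* and *Tkt* (transketolase) are named by none and were not analysed here. The 39 genes stand among 19505 named genes on 22206 probe sets.

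All 10 mice were males on a C57BL/6 N background, 60 days old and fed standard chow, and both groups carried floxed *Txnrd2* alleles. Control mice (ctrl, n = 5) were *Txnrd2* fl/fl without Cre, and knockout mice (mTKO, n = 5) were *Txnrd2* fl/fl; ACTA1-Cre +/Cre. The *ACTA1* promoter drives Cre in fast- and slow-twitch fibres, with little or no activity described for satellite cells. Cre itself also differs between the groups, and whole muscle holds cells other than fibres. RNA of each mouse was hybridized to its own Affymetrix Clariom S mouse array, which reports a log2 signal per probe set, and a log2 difference below is always mTKO minus ctrl.

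Glutathione transferases couple electrophiles such as lipid aldehydes and xenobiotics to glutathione, after which exporters of the ABCC family carry the conjugates out of the cell. NRF2, encoded by *Nfe2l2*, is the transcription factor that raises many of these enzymes. KEAP1 holds it in the cytosol and directs it to degradation until oxidants or electrophiles modify KEAP1 cysteines, and NRF2 then pairs with small MAF proteins at antioxidant response elements (AREs). Metallothioneins, small zinc-binding proteins, answer to the same stress and also to metals, through the factor MTF1 and metal response elements (MREs), and to glucocorticoids.

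The promoters of the list were searched for both elements, because NRF2 acts through AREs and MTF1 through MREs. RefSeq promoters of build GRCm38.p6, from 250 bases before to 50 bases after each transcription start, matched 38 of the 41 genes by symbol, with 50 promoters in all, and *Gsta4*, *Gstt2* and *Abcc1* had no entry. The ARE core TGACNNNGC, searched on both strands, occurred in 8 of the 50 promoters, which is 16% of them and belongs to 7 genes, and in 12.4% of all 32851 promoters. The 8 matches are shown 5′ to 3′ on the strand of the gene, with the core in capitals (in reverse complement where the core lies on the other strand, as in *Mgst1* and the upstream start of *Abcc4*) and 10 bases on each side.
*Gsta3*, chr1:21240454-21240483, plus strand: aactcaggcaTGACATTGCatttttcttct
*Nfe2l2*, chr2:75704884-75704913, minus strand: tcagcccaccTGACTCCGCcatgccccgga
*Gstm5*, chr3:107895802-107895831, plus strand: caccgcccacTGACCACGCggagggcgggt
*Gstm7*, chr3:107931724-107931753, minus strand: tctgaagaccTGACAAAGCgaagccaatcc
*Mgst1*, chr6:138140461-138140490, plus strand: gcggggcttgGCACGGTCAggaggcggggt
*Mt2*, chr8:94172529-94172558, plus strand: aaagggggtgTGACTCAGCgcggggggtgg
*Abcc4* upstream start, chr14:118706225-118706254, minus strand: gccccgagagGCGGGGTCAgggcgggccgg
*Abcc4* downstream start, chr14:118676935-118676964, minus strand: aataatctcgTGACTCTGCcgtggtggata
Counted from the transcription start, the matches begin at position -121 in *Gsta3*, -240 in *Nfe2l2*, -42 in *Gstm5*, -129 in *Gstm7*, -56 in *Mgst1*, -79 in *Mt2*, and -25 and -23 at the starts of *Abcc4*. The list thus shares this core in this window in a minority of its genes. In the arrays, the 7 genes with a match had log2 differences between mTKO and ctrl from -0.30 (*Mt2*) to 0.17 (*Nfe2l2*), with 3 above and 4 below 0. Of them, 0 lay past an unadjusted p under 0.05 from limma, against 6.36% of all probe sets. A match is only a run of letters, and elements outside the window were not searched.

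The MRE core, TGCACNC or TGCGCNC on either strand, was found in 14 of the 50 promoters (28%), belonging to 12 genes, and in 25.7% of all promoters. Only the metallothionein promoters of the list held at least 3 matches, which 1.97% of all promoters do, with 3 in *Mt1* and 4 in *Mt2*. No ARE match of the list overlapped an MRE match (0 of 9 pairs compared within a gene). Both metallothionein promoters are shown whole, since they hold the most MRE matches of the list; capitals mark the MRE cores and, in *Mt2*, also the ARE core TGACTCAGC given above.
*Mt1*, chr8:94178839-94179138, plus strand: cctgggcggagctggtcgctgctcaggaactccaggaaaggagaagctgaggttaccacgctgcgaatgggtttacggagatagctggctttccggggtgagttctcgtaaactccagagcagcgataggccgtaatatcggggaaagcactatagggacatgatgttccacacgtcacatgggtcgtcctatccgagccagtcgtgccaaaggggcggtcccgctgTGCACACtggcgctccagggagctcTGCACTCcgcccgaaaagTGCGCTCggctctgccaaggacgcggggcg
*Mt2*, chr8:94172368-94172667, plus strand: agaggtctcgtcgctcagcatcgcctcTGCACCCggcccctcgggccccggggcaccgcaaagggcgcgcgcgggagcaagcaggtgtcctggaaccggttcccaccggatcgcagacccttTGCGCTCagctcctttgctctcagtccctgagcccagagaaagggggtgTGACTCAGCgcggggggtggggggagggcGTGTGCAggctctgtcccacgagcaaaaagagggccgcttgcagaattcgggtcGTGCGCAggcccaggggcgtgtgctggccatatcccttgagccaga
Within this window, matches lie before and after the RefSeq start in both promoters, and of the pair only *Mt2* has the ARE core. Bases outside the window were not searched, so the ARE result is no difference shown between the genes.

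As a check of the labels, signals of *Txnrd2* were read first, and they lay between 8.47 and 9.08 in the ctrl arrays and between 7.51 and 7.96 in the mTKO arrays. The groups did not overlap, and the log2 difference was -0.998 with a standard error (SE) of 0.16 (limma, adjusted p = 0.118; exact permutation test, two-sided as all below, p = 0.00794, the lowest value possible with 5 against 5 arrays). Whether its probe set lies in the removed part is not given in the sources used here. Array medians lay between 6.06 and 6.14, and the mean correlation of an array with the other arrays between 0.987 and 0.989. The mean log2 signal of 8 myofibre markers, among them *Acta1* and *Myh4*, lay between 18.93 and 19.04 in all arrays, so that the markers of the labelled tissue were present. Precision is limited by 5 arrays per group.

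Neither the transferases nor the other NRF2 genes differed between mTKO and ctrl muscle beyond the threshold. At an adjusted p under 0.05 from limma, 0 of 39 genes were called, where 0.0045% of all probe sets were, and the smallest adjusted p of a member was 0.768. At an unadjusted p under 0.05 from limma, 3 of 39 (7.69%) lay past the threshold against 6.36% of all probe sets. The 3 were *Gstt2*, *Gpx2* and *Taldo1*, each lower in mTKO, a direction in which 3.26% of all probe sets lay past it, while 3.1% lay past it in the other direction. Counted in both directions, the share of the whole list was thus near that of the array. In the lower direction alone it was 7.69% against 3.26%. By group, 1 of 24 transferases (4.17%) and 2 of 15 other NRF2 genes (13.3%) lay past the threshold. These counts are too small to be read as a result about the groups. The methods' thresholds (unadjusted P under 0.05 and a fold change over 2) gave 0 members (0.0585% of all probe sets). Complete separation of the 5 mTKO from the 5 ctrl arrays was seen for 0 members and for 1.02% of all probe sets (0.495% with mTKO higher, 0.527% with mTKO lower).

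The transferases had a median log2 difference of 0.02, with 13 genes above and 11 below 0, and the other NRF2 genes one of -0.02, with 6 above, 8 below and *Abcc1* at 0. Over all probe sets, 11053 were above and 11071 below 0. For 36 of 39 members the 95% interval of the difference lay within -1 and 1 on the log2 scale, so that a 2-fold change in either direction was outside it, and for 23 it lay within a 1.5-fold change. The intervals of *Gsta2*, *Gstt2* and *Mt2* reached past 1 or -1. Of the 39 genes, 9 had a mean signal under the median of all values (6.10), where a change in transcript level may move the signal little. How the signal responds there was not tested.

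**Figure D1:**
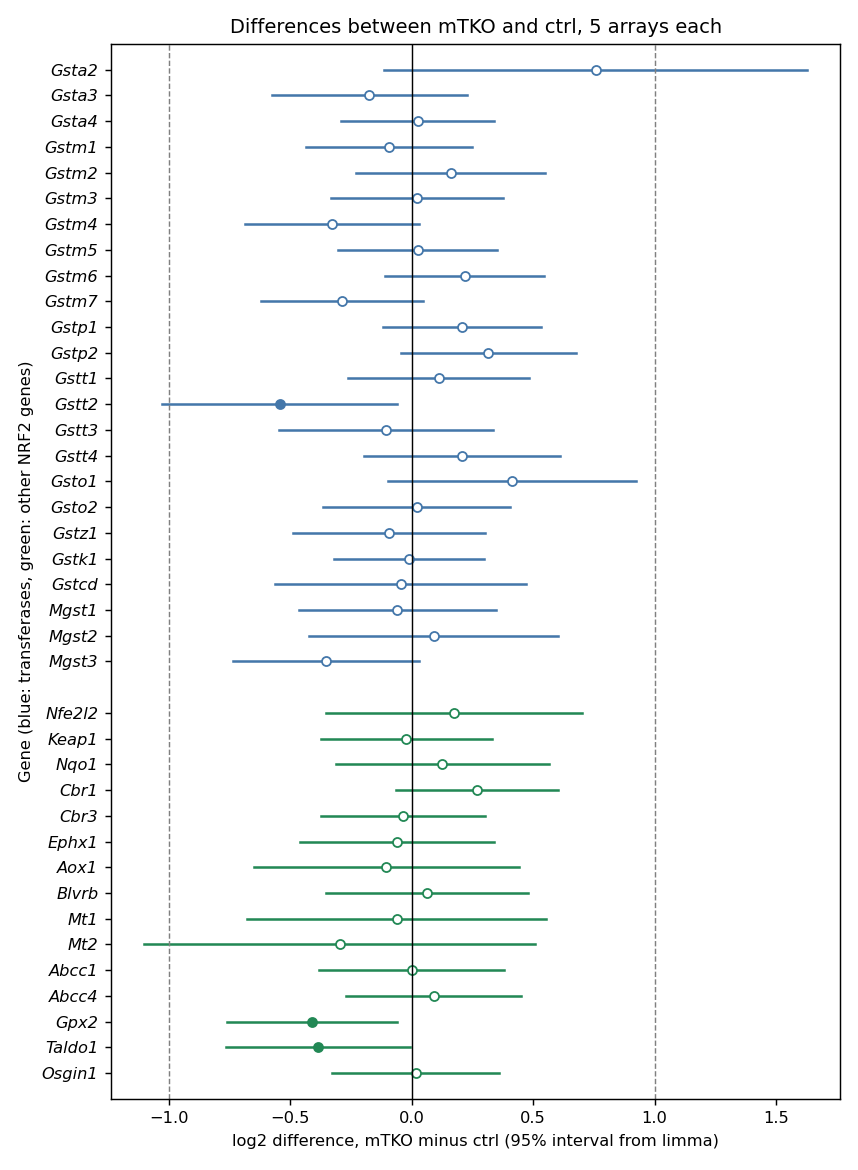
log2 difference (mTKO minus ctrl) of each of the 39 genes with its 95% interval from limma, for 5 arrays per group; filled points have an unadjusted p under 0.05 and dashed lines mark a 2-fold change. The 3 filled points are *Gstt2*, *Gpx2* and *Taldo1*, and only *Gsta2*, *Gstt2* and *Mt2* have intervals that cross a dashed line.

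Of the alpha class, whose enzymes remove products of lipid peroxidation, *Gsta2* had the largest difference of the list. Here and below, signals are given in the order of replicates 1 to 5. *Gsta2* gave log2 signals of 4.97, 4.00, 4.31, 3.31 and 3.73 in ctrl and 4.48, 6.67, 4.28, 4.41 and 4.27 in mTKO. Its mean signal over all arrays, 4.44, lay under the array median. mTKO replicate 2 stood far above all other arrays, and the other 4 mTKO arrays lay inside the range of ctrl. The log2 difference of 0.76 (95% interval -0.11 to 1.63; limma, adjusted p = 0.825) was 0.30 without that array. *Gsta3* ranged from 5.80 to 6.56 in ctrl and from 5.59 to 6.39 in mTKO, a difference of -0.17 (SE 0.19). *Gsta4*, the class member with a preference for the lipid aldehyde hydroxynonenal, had means of 9.69 ± 0.21 (SD, n = 5) and 9.71 ± 0.06 (SD, n = 5), a difference of 0.02 with an interval from -0.29 to 0.34.

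The 7 mu class genes, *Gstm1* to *Gstm7*, lie next to each other on chromosome 3 and encode cytosolic transferases of wide substrate range. Differences ran from -0.33 to 0.22, with 4 above and 3 below 0. *Gstm4* had the lowest, with a log2 signal of 10.35, 10.59, 10.53, 10.08 and 10.07 in ctrl and 9.92, 10.35, 9.83, 10.11 and 9.77 in mTKO. The groups overlapped, and the interval of -0.69 to 0.03 included 0 (limma, adjusted p = 0.821). *Gstm7*, at -0.29 (SE 0.16), had 8.46, 8.12, 8.70, 8.47 and 8.62 in ctrl and 8.36, 8.25, 8.21, 7.90 and 8.22 in mTKO. Only ctrl replicate 2 lay inside the mTKO range. Next to it on the chromosome, *Gstm6* had a difference of opposite sign, 0.22 (SE 0.15), and *Gstm2* one of 0.16 (SE 0.18). *Gstm1*, *Gstm3* and *Gstm5* had differences of -0.09, 0.02 and 0.02, with intervals between -0.43 at the lowest and 0.38 at the highest. Mu class transcripts are similar in sequence, and whether the probe sets tell them apart was not tested.

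The pi class pair, *Gstp1* and *Gstp2*, neighbours on chromosome 19, had higher means in mTKO without passing the test. *Gstp1* gave log2 signals of 11.97, 12.29, 12.05, 12.24 and 12.09 in ctrl and 12.51, 12.55, 12.11, 12.10 and 12.41 in mTKO. mTKO replicates 1, 2 and 5 exceeded all ctrl arrays, and replicates 3 and 4 lay among them, for a difference of 0.21 (SE 0.15; limma, adjusted p = 0.868). Its neighbour is a close copy, and whether the probe sets tell the pair apart was not tested. *Gstp2* had 11.73, 12.17, 11.89, 12.18 and 11.84 in ctrl and 12.50, 12.56, 11.88, 12.29 and 12.16 in mTKO. Here replicates 1, 2 and 4 exceeded all ctrl arrays, and the difference was 0.32 (SE 0.17; limma, adjusted p = 0.825).

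*Gstt2* had the lowest log2 difference of the whole list. The theta class, which includes enzymes for small halogenated compounds, is a row of 4 neighbouring genes on chromosome 10. *Gstt2* gave log2 signals of 7.51, 7.37, 7.43, 7.08 and 6.90 in ctrl and 6.73, 5.93, 7.42, 6.73 and 6.76 in mTKO. Apart from mTKO replicate 3, at the level of the ctrl arrays, each mTKO array lay below the lowest ctrl array. The difference of -0.54 (SE 0.23, interval -1.03 to -0.06) corresponds to 0.686 times the ctrl level, with an unadjusted p of 0.0304 and an adjusted p of 0.783 from limma (exact permutation test, p = 0.0556). It was -0.35 without mTKO replicate 2, with an unadjusted p of 0.0987 from limma. *Gstt1*, *Gstt3* and *Gstt4* had differences of 0.11, -0.10 and 0.21 (SE 0.18, 0.21 and 0.19), the last 2 from signals under the array median.

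The omega class enzyme GSTO1 carries a catalytic cysteine and reduces dehydroascorbate and mixed disulfides. *Gsto1* gave log2 signals of 10.39, 10.43, 10.27, 10.24 and 10.13 in ctrl and 10.70, 11.75, 10.27, 10.58 and 10.22 in mTKO. mTKO replicate 2 was again the highest, by more than the whole spread of the ctrl arrays, and replicates 1 and 4 also lay above all ctrl arrays. The difference was 0.41 (interval -0.10 to 0.92; limma, adjusted p = 0.840), and 0.15 without that array. *Gsto2* was dim in all arrays, from 3.17 to 3.89, and gave a difference of 0.02.

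**Figure D2:**
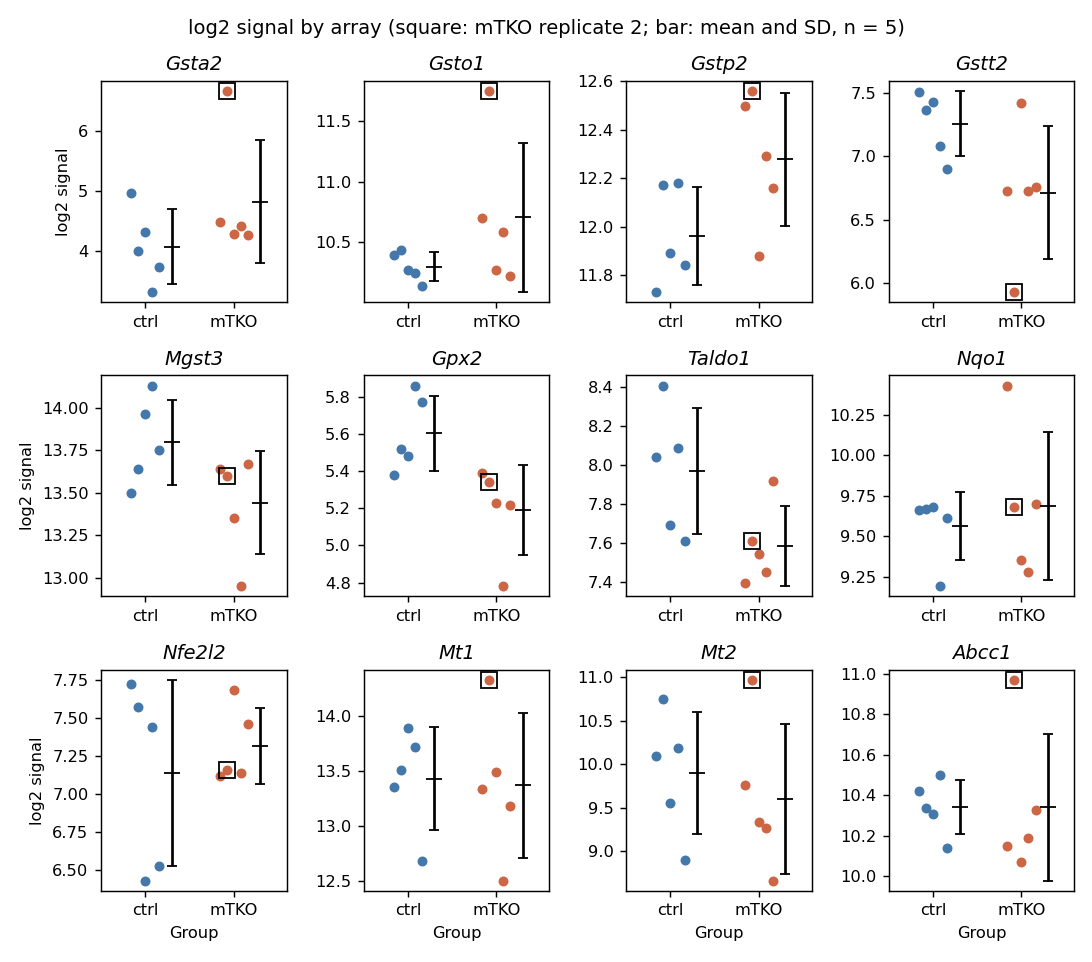
log2 signal of 12 genes by array, with ctrl in blue, mTKO in orange, mTKO replicate 2 in a square, and the mean with SD (n = 5) beside the points; each panel has its own axis, which does not start at 0. In *Gsta2*, *Gsto1*, *Gstp2*, *Mt1*, *Mt2* and *Abcc1* the square is the highest point of all, in *Gstt2* the lowest.

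Of the remaining transferases, *Mgst3* was the one with all 5 mTKO arrays below the ctrl mean. *Gstz1*, which isomerizes maleylacetoacetate in tyrosine breakdown, *Gstk1*, the transferase of mitochondria and peroxisomes, and *Gstcd* had differences of -0.09, -0.01 and -0.05 (SE 0.19, 0.15 and 0.24). Of these, *Gstk1* was measured most closely, with means of 12.93 ± 0.16 and 12.92 ± 0.13 (SD, n = 5 each). The microsomal transferases belong to the membrane-bound MAPEG family. *Mgst1*, found in endoplasmic reticulum and outer mitochondrial membrane, had a difference of -0.06 (SE 0.19), and *Mgst2* one of 0.09 (SE 0.24). *Mgst3*, which also acts as a peroxidase, gave log2 signals of 13.50, 13.64, 13.96, 14.13 and 13.75 in ctrl and 13.64, 13.60, 13.35, 12.95 and 13.67 in mTKO. The lowest 2 arrays were mTKO and the highest 3 were ctrl, with overlap between, for a difference of -0.35 (interval -0.74 to 0.03; limma, adjusted p = 0.814).

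For the regulators, the spread between mice exceeded the difference between the groups. *Nfe2l2* gave log2 signals of 7.72, 7.57, 6.43, 7.44 and 6.53 in ctrl and 7.12, 7.16, 7.68, 7.14 and 7.46 in mTKO. Its ctrl arrays fell into 3 high and 2 low ones with all mTKO arrays between their extremes, and the difference was 0.17 (SE 0.25). *Keap1* had a difference of -0.02 (interval -0.37 to 0.33). NRF2 is controlled mainly through its stability, and protein levels were not analysed here.

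Enzymes for quinones, carbonyls, epoxides and aldehydes gave 0 of 6 members past an unadjusted p under 0.05 from limma, against 6.36% of all probe sets. With so few genes, that count is near the share. *Nqo1*, the quinone reductase that is the usual readout of NRF2, gave log2 signals of 9.66, 9.67, 9.68, 9.19 and 9.61 in ctrl and 10.43, 9.68, 9.35, 9.28 and 9.70 in mTKO. mTKO replicate 1 stood above all other arrays, while replicates 3 and 4 lay below all but the lowest ctrl array. The difference was 0.13, and its interval of -0.31 to 0.56 leaves out a 1.5-fold rise (0.585 on the log2 scale). *Cbr1*, a carbonyl reductase, was above the ctrl mean in all 5 mTKO arrays (7.55 to 7.89, against 7.07 to 7.68 in ctrl), a difference of 0.27 (SE 0.16; limma, adjusted p = 0.840; exact permutation test, p = 0.0556). Its neighbour on chromosome 16, *Cbr3*, was dim and had a difference of -0.04 (SE 0.16). *Ephx1* (epoxide hydrolase), *Aox1* (aldehyde oxidase) and *Blvrb* (biliverdin reductase B) had differences of -0.06, -0.10 and 0.06 (SE 0.19, 0.26 and 0.20).

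Metallothioneins varied more between mice of a group than between the groups. *Mt1* gave log2 signals of 13.35, 13.51, 13.89, 13.72 and 12.68 in ctrl and 13.34, 14.33, 13.49, 12.50 and 13.18 in mTKO, a difference of -0.06 (interval -0.68 to 0.55). *Mt2* had 10.09, 10.75, 9.55, 10.19 and 8.90 in ctrl and 9.76, 10.97, 9.34, 9.27 and 8.66 in mTKO, a difference of -0.30 (interval -1.10 to 0.51; limma, adjusted p = 0.934). In both genes mTKO replicate 2 was the highest array, and in *Mt2* ctrl replicate 2 came next. Without mTKO replicate 2 the differences were -0.30 and -0.64, the second with an unadjusted p of 0.0627 from limma. Adipocyte markers were highest in the same 2 arrays as *Mt2*. The mean log2 signal of 5 measured of 6 listed markers, among them *Adipoq* and *Plin1*, was 7.34 in ctrl replicate 2 and 6.92 in mTKO replicate 2. It was 4.35 to 6.23 in the other arrays. *Lep* of the list did not follow, at 4.11 in mTKO replicate 2. Elsewhere the order differed: ctrl replicate 1 had a mean of 4.91 with *Mt2* at 10.09, and ctrl replicate 5 had 5.66 with 8.90. The part of these markers in the result was not tested. In whole muscle, fewer cells of a type and less RNA per cell cannot be told apart.

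The conjugate exporters had differences of 0.00 (*Abcc1*, interval -0.38 to 0.38) and 0.09 (*Abcc4*, interval -0.27 to 0.45). *Abcc1* had 10.42, 10.34, 10.31, 10.50 and 10.14 in ctrl and 10.15, 10.97, 10.07, 10.19 and 10.33 in mTKO, so that equal means hid 1 high array, mTKO replicate 2, above 4 under the ctrl mean. Without it the difference was -0.16.

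*Gpx2* and *Taldo1* were the members of the NRF2 group past an unadjusted p under 0.05. *Gpx2*, the glutathione peroxidase known from the gut lining, gave log2 signals of 5.38, 5.52, 5.48, 5.86 and 5.77 in ctrl and 5.39, 5.34, 5.23, 4.78 and 5.22 in mTKO. The groups touched in a single pair of arrays, mTKO replicate 1 above ctrl replicate 1 by the last decimal, and the signals all lay under the array median. The difference of -0.41 (SE 0.16, interval -0.76 to -0.06) had an unadjusted p of 0.0240 and an adjusted p of 0.768 from limma (exact permutation test, p = 0.0159). *Taldo1*, the transaldolase of the pentose phosphate pathway, had 8.04, 8.41, 7.69, 8.09 and 7.61 in ctrl and 7.39, 7.61, 7.54, 7.45 and 7.92 in mTKO. Only mTKO replicate 5 exceeded any ctrl array, replicate 2 equalled the lowest of them, and the difference was -0.39 (SE 0.18; limma, unadjusted p = 0.0466, adjusted p = 0.783; exact permutation test, p = 0.0635). *Osgin1*, a growth inhibitor induced by oxidative stress, had a difference of 0.02 (SE 0.16).

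**Figure D3:**
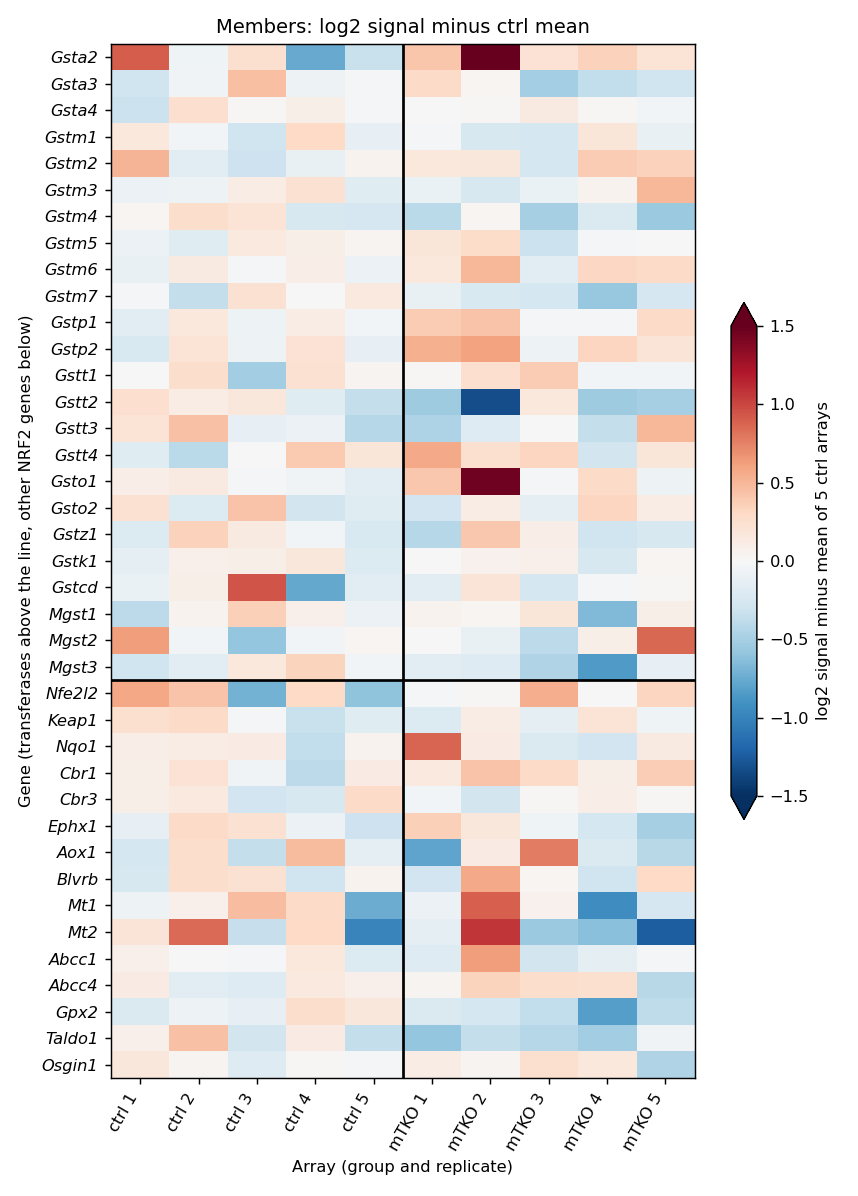
Deviation of each array (columns) from the mean of the 5 ctrl arrays, in log2 units, for the 24 transferases above the line and the 15 other NRF2 genes below it. All 5 mTKO arrays lie above the ctrl mean for *Gsta2* and *Cbr1* and below it for *Gstm7*, *Mgst3*, *Gpx2* and *Taldo1*, and the 3 darkest cells lie in mTKO replicate 2 (*Gsta2*, *Gsto1* and *Gstt2*).

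The same array recurred among these genes, and it was singled out after its values were seen. mTKO replicate 2 was the highest of the 10 arrays for 13 of 39 members (33.3%), 7 transferases (*Gsta2*, *Gstm5*, *Gstm6*, *Gstp1*, *Gstp2*, *Gsto1* and *Gstz1*) and 6 other NRF2 genes (*Cbr1*, *Blvrb*, *Mt1*, *Mt2*, *Abcc1* and *Abcc4*). Over all probe sets, the same array was the highest for 9.84%. No other array was the highest for more than 5 members. Of 23 measured further NRF2 targets, which were listed apart from the members, it was the highest for 8 (34.8%), namely *Sqstm1*, *Slc7a11*, *Ftl1*, *Srxn1*, *Gclm*, *Hmox1*, *Pgd* and *Fth1*. The deviation of this array from the ctrl mean averaged 0.22 over the members, against -0.14 to -0.01 in the other 4 mTKO arrays. *Mthfd2*, the folate cycle enzyme that was the probe set called in these data, was also highest in this array (13.66, against 9.68 to 11.79 in the other mTKO arrays). Its slow fibre markers (6 of 6 measured) had the lowest mean signal of all arrays, 13.72 against 14.14 to 15.10, and its endothelial markers (5 of 6) also the lowest, 10.38 against 10.59 to 11.24. Schwann cell markers (2 of 4 measured) had the highest mean there, 8.22 against 6.88 to 7.54, as did macrophage markers (5 of 6), 7.73 against 6.98 to 7.64. Smooth muscle and pericyte markers (5 of 5) had the lowest mean there, 10.53 against 10.76 to 11.13, and erythroid markers (2 of 5) too, 7.24 against 7.35 to 7.60. Single markers did not all follow these means. Of the macrophage markers only *C1qa* and *C1qb* were highest there, and of the erythroid markers only *Slc4a1* was lowest. In the slow fibre, endothelial and smooth muscle lists, some markers were not lowest there either. The part of these markers in the pattern was not tested. Without this array the median log2 difference was -0.02 for the transferases and -0.06 for the other NRF2 genes.

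**Figure D4:**
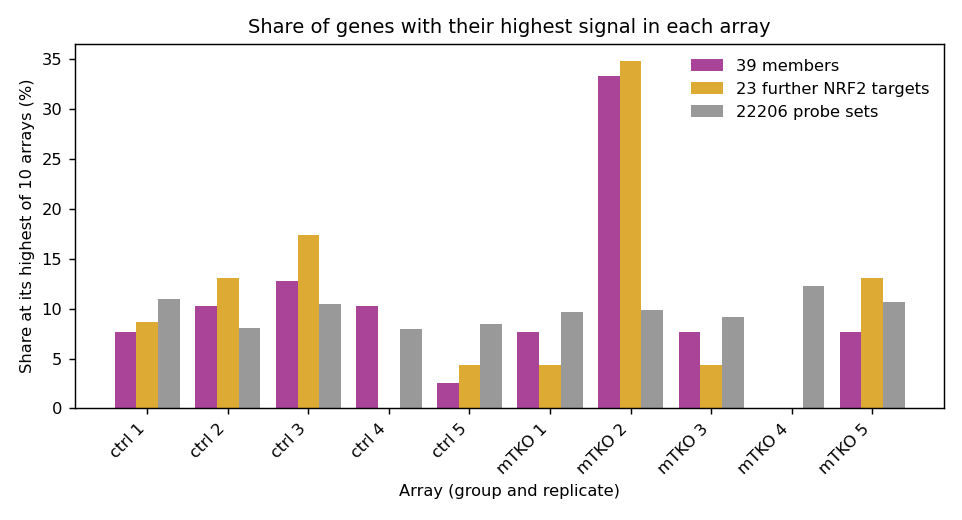
Share (%) of genes whose log2 signal was highest in each of the 10 arrays, for the 39 members, 23 further NRF2 targets and all 22206 probe sets. mTKO replicate 2 holds 33.3%, 34.8% and 9.84%, whereas mTKO replicate 4 was the highest for none of the members or further targets.

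Smooth muscle and pericyte markers (5 of 5 measured) had a mean signal of 10.76 to 11.13 in ctrl and 10.53 to 10.83 in mTKO, and satellite cell markers (4 of 4) one of 6.06 to 6.16 and of 6.17 to 6.55. The markers within each list differed. *Pax7* had a log2 difference of 0.47 (SE 0.17) and *Chodl* one of -0.14 (SE 0.17), and 3 of the 4 satellite cell markers had a mean signal under the array median. *Tagln* had a difference of -0.48 (SE 0.20) and *Cspg4* one of 0.05 (SE 0.18), with 4 of the 5 smooth muscle and pericyte markers below 0. The part of these list means in the values of the members was not tested.

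To see whether paralogs moved together from mouse to mouse, deviations from the group means were correlated over the 10 arrays within each transferase class and for the metallothioneins, 39 pairs in all. *Gstp1* and *Gstp2* had the closest relation (Pearson's r = 0.81, permutation p = 0.0164; Spearman's rho = 0.77, permutation p = 0.0279), and r was 0.91 without 2 arrays. The 2 arrays left out, here and below, are those farthest from the median of the first-named gene of the pair. *Mt1* and *Mt2* had r = 0.69 (permutation p = 0.0529) and rho = 0.58 (permutation p = 0.106), with r = 0.53 without 2 arrays. *Mgst1* and *Mgst3* had r = 0.79 (permutation p = 0.0240) and rho = 0.60 (permutation p = 0.0789), but r = 0.19 without 2 arrays, so that this r depended on them. Leaving out the arrays farthest by the second gene was not tried. After Benjamini-Hochberg adjustment over the 39 pairs, 0 passed, with 0.468, 0.688 and 0.468 for the r of these pairs and 0.544, 0.585 and 0.585 for the rho. Of the 39 correlations, 23 were above 0.

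Genes around the list were examined for the same pathways, and none of them passed an adjusted p under 0.05 from limma. Of 23 measured further NRF2 targets, 2 were higher and 1 lower at an unadjusted p under 0.05 from limma (3.1% and 3.26% of all probe sets), and the median log2 difference was 0.09. They were *Gsr*, the glutathione reductase (0.34, SE 0.16), *Sqstm1*, the autophagy receptor that also binds KEAP1 (0.34, SE 0.16), and the exporter *Abcc2* (-0.35, SE 0.16), each with an adjusted p of 0.783 from limma. *Abcc2* was dim, with a mean signal of 4.22, under the array median. Of 13 other NRF2 regulators, 0 lay past that unadjusted threshold, against 6.36% of all probe sets. *Nfe2l1*, the related factor NRF1, had the smallest p of them with a difference of 0.18 (SE 0.14).

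Among 8 other enzymes with a transferase or MAPEG fold, 0 lay past an unadjusted p under 0.05 from limma (6.36% of all probe sets). The differences ran from -0.39 (*Gdap1*) to 0.10. The mercapturate pathway, which trims glutathione conjugates after export, had 0 of 11 measured genes past the same threshold, with differences from -0.30 (*Dpep1*) to 0.27.

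Of 10 measured genes for glyoxalase and aldehyde removal, 2 were higher at the same unadjusted threshold (3.1% of all probe sets). *Aldh2*, the mitochondrial aldehyde dehydrogenase, gave log2 signals of 12.98, 12.81, 12.83, 12.88 and 12.61 in ctrl and 13.29, 13.30, 13.38, 13.39 and 13.45 in mTKO. The groups did not overlap, and the difference was 0.54 (SE 0.14; limma, adjusted p = 0.562; exact permutation test, p = 0.00794). *Aldh9a1* had the same difference of 0.54 with a larger SE of 0.23.

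Of 18 measured phase I and II enzymes, 1 was higher and 1 lower at an unadjusted p under 0.05 from limma (3.1% and 3.26% of all probe sets). *Sult1a1*, a phenol sulfotransferase, had 10.02, 10.20, 9.79, 10.17 and 9.54 in ctrl and 8.91, 9.43, 9.14, 8.65 and 8.61 in mTKO. Each mTKO array lay below each ctrl array, a difference of -0.996 (SE 0.19, interval -1.40 to -0.59; limma, adjusted p = 0.357; exact permutation test, p = 0.00794). *Nat2*, an N-acetyltransferase, had a difference of 0.48 (SE 0.18; limma, adjusted p = 0.763), from a mean signal of 5.38, under the array median.

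Genes that share an inducer with the metallothioneins were set beside them. Of 8 zinc and metal handling genes, 0 lay past an unadjusted p under 0.05 from limma (6.36% of all probe sets). *Slc30a1*, the zinc exporter that MTF1 also controls, was at -0.23 (SE 0.17). Of 12 glucocorticoid-induced genes, 3 were lower past that threshold (3.26% of all probe sets) and 11 had a difference below 0 (11071 of 22206 probe sets), with a median of -0.32. The methods' thresholds were passed by 2 of the 12, against 0.0585% of all probe sets. *Arrdc2* had the largest, -1.77 (SE 0.47; limma, adjusted p = 0.588), and the clock gene *Per1* had one of -1.33 (SE 0.34; limma, adjusted p = 0.562). These 2 were the extremes of the list. *Mt2*, at -0.30, was near the list median, and *Mt1* was at -0.06. Both differences were smaller than the spread between mice, as were those of *Ddit4* (-0.50) and *Tsc22d3* (-0.30) in the list. Whether a shared inducer had a part was not tested.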

How the data were processed

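Affymetrix Clariom S arrays, 1 per mouse, measured RNA of GTN muscle from males of both genotypes (5 ctrl, 5 mTKO). SST-RMA, run by the authors in Expression Console 1.4, gave a log2 signal per probe set; it corrects background, normalizes between arrays and summarizes probes; the deposited log2 values, rounded to 2 decimals, entered the fit unfiltered. A genome build for the arrays is not given in the sources used here. Of 22206 probe sets, 19572 carry 1 symbol in the platform table, 0 several and 2634 none; the brightest probe set stood for a symbol.

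The genotypes were compared with limma 3.58.1 under R 4.3.3 (lmFit, eBayes, 7.53 prior degrees of freedom, Benjamini-Hochberg over all probe sets, threshold 0.05), beside the methods' t-test and, for single genes, a two-sided exact permutation test. Every measured member was named, with *Txnrd2*, up to 3 genes of the smallest p from each other pathway list and up to 2 markers of each marker list; *Mthfd2*, and the further targets highest in 1 array, were named after their values were seen. Members and lists were chosen with earlier results of these data known. Permutation p-values of correlations (100000 permutations within groups, seed 5) were added after seeing the data. Python 3.11 with matplotlib 3.10.9 drew the figures. Promoters came from RefSeq (GRCm38.p6); protein sequences were not used here.

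In simulated arrays with 5 per group and 22206 probe sets, limma recovered 3, 30, 49 and 50 of 50 simulated log2 changes of size 0.5, 1, 2 and 3.5, with 6 false calls. The large changes put in ease the adjusted threshold for the smaller ones, and the noise was drawn separately for each probe set. In the real arrays 1 probe set was called, and *Txnrd2* at -0.998 was not (limma, adjusted p = 0.118). The recovered shares therefore do not carry over to the real arrays. Alternatives were the methods' t-test, trend and robust eBayes, array weights, 3 normalizations, 2 filters on dim probe sets, other probe set rules, another threshold, a replicate block and leaving out each array. Metabolite, protein and phenotype data were not analysed here.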

Additional observations from a re-analysis of the deposited data

Results flagged for a closer look

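In 7 of 80 groups of 5 arrays tested (the 39 members and *Txnrd2* in each group), the highest or lowest array was separated from its nearest neighbour by a larger part of the group's range than Dixon's 95% limit of 0.710 for 5 samples allows. Chance flags about 1 in 20 groups. *Gsta2* was highest in mTKO replicate 2, at 6.67 against 4.48 in the next array (0.912 of the range), and *Abcc1* was highest there too, at 10.97 against 10.33 (0.711). mTKO replicate 4 was the lowest of its group for *Mgst1*, at 13.50 against 14.19 (0.821), for *Gstk1*, at 12.69 against 12.94 (0.781), and for *Gpx2*, at 4.78 against 5.22 (0.721). *Osgin1* was lowest in mTKO replicate 5, at 5.98 against 6.47, where the gap, written as 0.710 of the range, was just over the limit. In ctrl, *Nqo1* was lowest in replicate 4, at 9.19 against 9.61 (0.857).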

How the results depend on the processing

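The count of members called was 0 under every alternative run, an adjusted p under 0.10 and the methods' thresholds included, and the smallest adjusted p of a member lay between 0.589 (without mTKO replicate 3) and 0.905 (without ctrl replicate 1). The transferase median ran from -0.04 to 0.04 and the other NRF2 median from -0.06 to 0.01 when an array was left out. The count past an unadjusted p under 0.05 was 1 with the methods' t-test (*Gpx2*) and ran from 1 to 5 with an array left out (5.41% to 6.68% of all probe sets). It was 1 without mTKO replicate 4 (*Gstt2*) and 5 without mTKO replicate 5 (*Gstt2*, *Gsto1*, *Mgst3*, *Gpx2* and *Taldo1*). Complete separation was reached by 0 to 2 members: *Gpx2* without ctrl replicate 1 or mTKO replicate 1, *Gstm7* without ctrl replicate 2, and *Gstt2* and *Gstm6*, 2 in all, without mTKO replicate 3. With an array left out, 1.59% to 2.13% of all probe sets separated, against 1.02% with all arrays. Groups of fewer arrays separate more easily by design, so shares with and without an array left out are not like for like. No member's difference changed sign under array weights or any of the 3 normalizations. The other settings that keep all arrays leave a member's difference as it is by design, so they could not change a sign. With an array left out, 19 differences changed sign, the largest of them 0.17 in size.

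*Txnrd2* passed the threshold only with trend and robust eBayes (-0.998, adjusted p = 0.0453 from limma) and among probe sets above the median signal (-0.998, adjusted p = 0.0327 from limma), where fewer probe sets are tested, and ran from -1.07 to -0.91 with an array left out. The filters on dim probe sets dropped 9 and 5 members.

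Deviations of same-numbered ctrl and mTKO arrays had correlations of 0.04, 0.16, -0.04, 0.02 and 0.06. Those of differently numbered arrays ran from -0.18 to 0.10, so that the 0.16 of replicate 2 was the highest of all. Whether the numbers pair the samples cannot be told from so few values. With a replicate block 0 members and 1 probe set were called, as without it. With 5 arrays per group, differences of 0.5 on the log2 scale were mostly missed in simulated data. Signals under the array median may show changes poorly, which was not tested.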
